A study of Mus musculus with 15 samples.

Results

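The genes described here mark the macrophages, neutrophils and dendritic cells of the mouse liver. They were chosen by name, as the non-control probes of the array whose gene name stands on a list of 40 myeloid genes. Of the 40 names, 38 were gene names of the array and Emr1 was found under its current symbol Adgre1, while Ly6g, a neutrophil surface marker, had no probe under its name. The 39 genes with a probe have 51 probes, out of 55681 probes and 33253 gene names on the array. They fall into resident (Kupffer cell) genes, macrophage receptors shared by resident and recruited cells, Fc receptors with their adaptors and lysosomal genes, genes of recruited monocytes, neutrophils and scar-associated macrophages, and dendritic cell genes.

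RNA of 15 mouse liver tumors was measured, 1 array per tumor. The tumors are hepatocellular carcinoma (HCC, a tumor with hepatocyte features) or intrahepatic cholangiocarcinoma (ICC, a tumor with bile duct features), and they form 3 groups of 5, named p53f/f HCC, p53LKO HCC and p53LKO ICC after genotype and tumor type. p53f/f mice carry a floxed Trp53 gene that is left intact and served as controls, and p53LKO mice lack Trp53 in the liver. All mice, controls included, were on a C57/BL6J background and received carbon tetrachloride (CCl4) in olive oil by intraperitoneal injection for 16 weeks, so no group is free of chronic liver damage. The RNA came from whole carcinoma tissue, which holds tumor cells, stroma and blood cells together. The p53f/f HCC came from 4 mice, since mouse 3717 gave 2 of them, the p53LKO HCC from 5 mice and the ICC from 5 mice. Mice 3731, 3733, 3976 and 5283 gave both an HCC and an ICC, mouse 3975 gave an HCC only and mouse 3977 an ICC only. The labels give no age, sex or Cre line, and the study describes the mice of its transcriptome analysis as male.

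Kupffer cells are the macrophages that live in the liver sinusoids, where they clear particles, bacteria and old red cells from portal blood and recycle iron. They are seeded before birth and mostly renew themselves, and their identity depends on liver factors and on signals from the neighbouring endothelial, stellate and hepatocyte cells. When the liver is injured, monocytes and neutrophils enter from the blood, and the macrophages that monocytes become carry lysozyme, the phagocyte oxidase and, in scarred tissue, Trem2 and Gpnmb. Conventional and plasmacytoid dendritic cells present antigen and make interferon. In bulk tissue, fewer cells of a type and less RNA of its genes per cell cannot be told apart.

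All levels are log2 signals from which the 75th percentile of their array was taken off, so a probe at that percentile stands at 0 and 1 unit is a doubling. Levels of different genes come from different probes and are not compared with each other. The probe with the highest mean level stands for a gene. A gene was counted as changed at an adjusted p under 0.05 in limma's moderated test with a fold change over 2, the p being adjusted over all probes tested. Of the 39 genes, 33 were well above background on all 15 arrays, 5 (Siglec1, Mpo, Gpnmb, Flt3 and Clec9a) on 11 to 14 arrays, and Cd163, a scavenger receptor for haptoglobin and haemoglobin, on none. The other 38 genes were tested in both comparisons, each of them well above background on 3 or more arrays of all 3 groups.

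The share of probes well above background was 55.1% to 70.1% on p53f/f HCC arrays, 37.0% to 62.1% on p53LKO HCC arrays and 42.5% to 47.0% on ICC arrays. All p53f/f HCC lay in the upper row of their slide and all ICC in the lower row, while the p53LKO HCC of mice 3976 and 5283 lay in the lower row and the other 3 in the upper one, so row and group are partly confounded. The share was 37.0% to 46.4% for the p53LKO HCC in the lower row and 61.0% to 62.1% for those in the upper row. The tissue labels were checked against marker genes. In ICC against p53LKO HCC, 4 of 7 hepatocyte markers fell and 0 rose, and the biliary marker Krt19 rose by 4.67 on the log2 scale, whereas Cldn7 fell by 2.52. The biliary markers Epcam and Krt7 were well above background on 5 and 4 ICC arrays and on 0 and 1 p53LKO HCC arrays.

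The promoters of the genes that moved together are shown first. Lyz1 and Lyz2, neighbouring genes for lysozyme, stood for the recruited cells and rose together in ICC. Clec4f and Vsig4 stood for Kupffer cells and were lower in the ICC than in the HCC of each mouse that gave both. The sequences are the 250 bases before the transcription start, 5′ to 3′ on the strand of the gene, from RefSeq (GRCm38.p6). They lie at chr10:117292869-117293118 for Lyz1, chr10:117282273-117282522 for Lyz2, chr6:83656117-83656366 for Clec4f and chrX:96293439-96293688 for Vsig4, all on the minus strand. Capitals mark GAGGAA or GGAAGT, searched on both strands (ACTTCC is GGAAGT read on the other strand). These letters around a GGAA core are a form bound by ETS factors such as PU.1 (Spi1), the factor that myeloid cells need to develop, and the 2 motifs can overlap.
Lyz1 promoter: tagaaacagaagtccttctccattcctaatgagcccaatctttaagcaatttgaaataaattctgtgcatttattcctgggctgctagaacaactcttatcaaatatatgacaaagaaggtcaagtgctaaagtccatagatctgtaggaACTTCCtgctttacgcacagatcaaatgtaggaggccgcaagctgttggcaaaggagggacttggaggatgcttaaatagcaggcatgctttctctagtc
Lyz2 promoter: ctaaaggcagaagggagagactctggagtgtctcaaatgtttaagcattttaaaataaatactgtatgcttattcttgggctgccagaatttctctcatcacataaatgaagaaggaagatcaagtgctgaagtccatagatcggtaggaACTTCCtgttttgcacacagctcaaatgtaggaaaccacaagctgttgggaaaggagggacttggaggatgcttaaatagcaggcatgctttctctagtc
Clec4f promoter: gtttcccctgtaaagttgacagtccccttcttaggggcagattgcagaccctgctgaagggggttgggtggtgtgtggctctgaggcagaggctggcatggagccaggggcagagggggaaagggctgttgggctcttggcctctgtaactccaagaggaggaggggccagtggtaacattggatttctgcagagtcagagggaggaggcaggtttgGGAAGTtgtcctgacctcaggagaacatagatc
Vsig4 promoter: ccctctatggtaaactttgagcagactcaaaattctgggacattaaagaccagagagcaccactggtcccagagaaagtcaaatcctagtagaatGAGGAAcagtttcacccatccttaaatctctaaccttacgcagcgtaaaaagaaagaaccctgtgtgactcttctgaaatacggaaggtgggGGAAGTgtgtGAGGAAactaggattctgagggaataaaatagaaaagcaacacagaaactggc
The Lyz1 and Lyz2 promoters were identical at 200 of 252 aligned columns (79.4%), and at 92 of the last 100 bases before the start. Their probes shared no run longer than 6 bases, so the levels of the 2 genes were read by different sequences. GAGGAA occurred in 23.3% of 32851 promoters of this length, for 25.9% of 27025 gene names and for 17 of the 31 listed genes with a promoter in the table. GGAAGT occurred in 19.7% of the promoters, for 22.2% of the gene names and for 16 of the 31. Both sets of letters occurred in resident genes (GAGGAA in 3 of 7, GGAAGT in 4 of 7) and in recruited genes (5 of 10 and 6 of 10, counting Ly6g, which has a promoter in the table but no probe). A match is a description of the letters, not of a bound site.

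The comparison of ICC with HCC of p53LKO mice asked how the 2 tumor types of one genotype differ. In ICC, 11 of the 38 genes were higher and 1 was lower. Of all probes tested, 12.9% were called higher and 13.4% lower (13.1% and 14.2% with 1 probe per gene name). The median log2 fold change was 0.61 for the 38 genes and -0.16 for all probes. The genes that rose were Ncf4, Lyz2, Trem2, Gpnmb, Lyz1 and Ncf1 of the recruited group, Clec9a and Cd83 of the dendritic group, Fcgr3 and Ctss of the Fc receptor and lysosome group, and Aif1 of the shared receptors. The gene that fell was Elane. The 5 ICC did not overlap the 5 p53LKO HCC for 12 genes that were higher and 1 that was lower, a pattern shown by 10.2% (higher) and 19.7% (lower) of gene names. All 5 ICC lay above all 10 HCC of both genotypes for 11 genes and below them for 0, where 5.65% and 9.24% of gene names did.

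**Figure D1:**
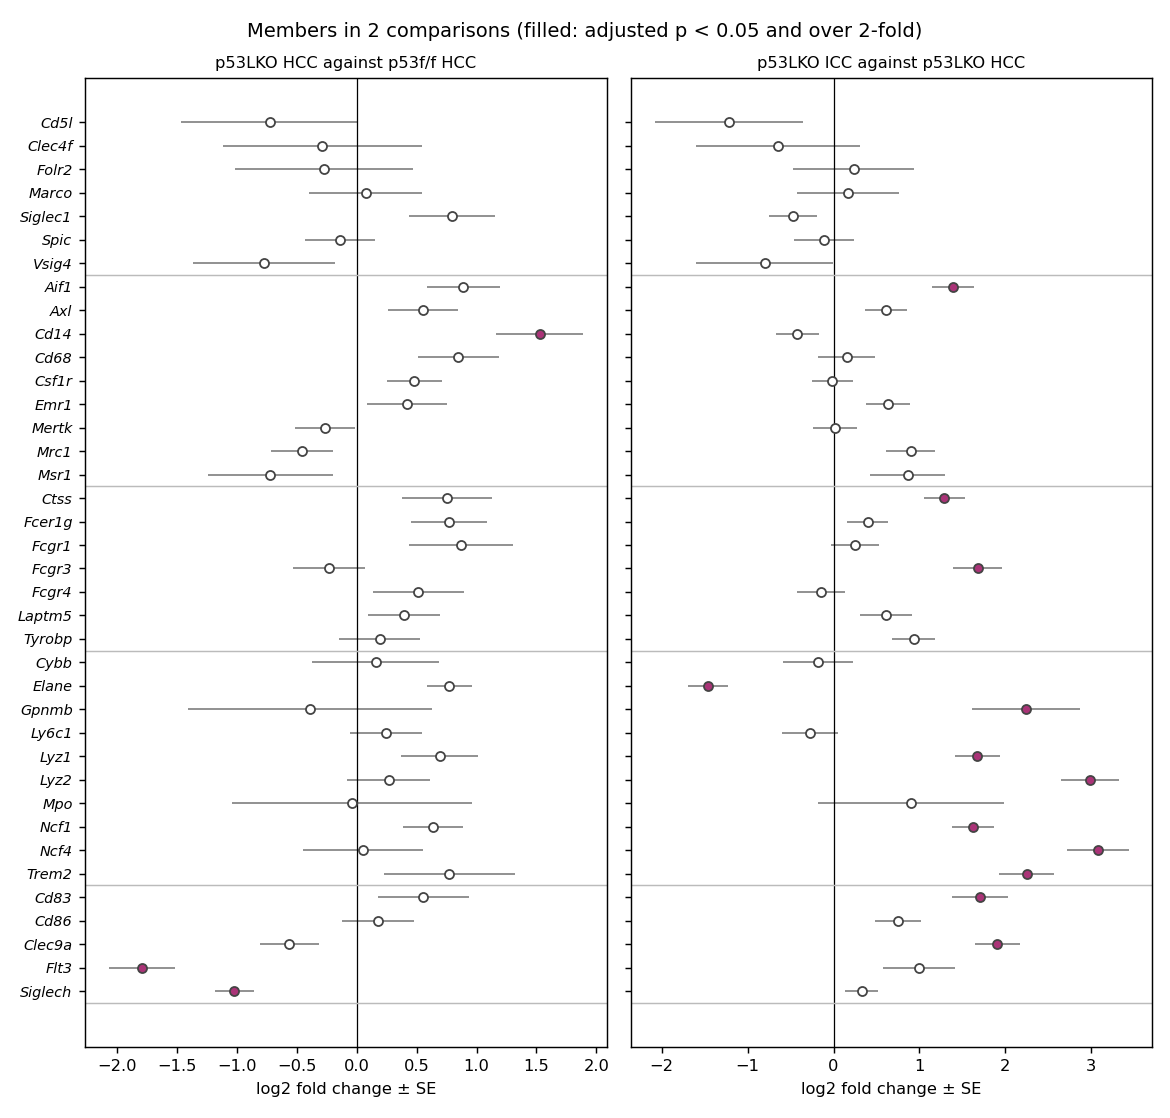
Log2 fold change of the 38 tested genes (1 row per gene, grouped by role) for p53LKO against p53f/f HCC (first comparison) and ICC against p53LKO HCC (second). Bars are ± SE (limma). The 95% intervals given in the text are wider and use this SE with 8 degrees of freedom. Filled points are genes at an adjusted p under 0.05 and over 2-fold (3 in the first comparison, 12 in the second). The filled points of the second comparison lie mostly on the right, in the recruited and dendritic groups.

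The comparison of HCC between the genotypes asked what differs between tumors of mice with and without p53 in the liver. The study reports that tumor formation was delayed in p53f/f mice, and the labels give no ages. Genotype therefore cannot be told apart from age or time since CCl4. Among the 38 genes Cd14 was higher in p53LKO HCC, Flt3 and Siglech were lower, and 35 were not called. Of all probes tested, 3.64% were called higher and 16.0% lower (4.15% and 13.9% with 1 probe per gene name). The HCC of the genotypes did not overlap for Elane (higher) and for Flt3 and Siglech (lower), as for 7.07% and 14.9% of gene names. The median log2 fold change was 0.22 for the 38 genes and -0.12 for all probes. The directions depend on the scaling for the genes that were not called: when the arrays were scaled to the 7 spike-in probes, the median of all probes shifted by 0.74 on the log2 scale, 27.2% of probes were called higher, and 16 of the 38 genes were called higher, Cd14 among them. Both comparisons share the 5 p53LKO HCC arrays. ICC was not tested against p53f/f HCC.

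Resident genes come first. Clec4f is a lectin of mouse Kupffer cells that is used to define them, and its probe lies at chr6:83595281-83595339 (mm9, as in the array files). Its levels were 0.60, 3.88, 0.92, 3.05 and 2.98 in p53f/f HCC, 3.00, 3.71, 1.49, 2.26 and -0.45 in the p53LKO HCC (mice 3976, 5283, 3731, 3733 and 3975) and -0.0033, -0.98, 2.06, 3.86 and 1.84 in ICC (mice 3731, 3733, 3976, 3977 and 5283). The groups overlapped widely, with the highest ICC (mouse 3977) near the highest HCC and the lowest HCC (mouse 3975) below 4 of the 5 ICC. Across the 5 ICC and 5 p53LKO HCC the log2 fold change was -0.64 (SE 0.95, adjusted p = 0.605 with limma, 95% interval -2.84 to 1.56). The HCC of mouse 3975 and the ICC of mouse 3977 have no partner from the same mouse. In the 4 mice that gave both tumors, Clec4f was lower in the ICC each time, by 1.88 on average on the log2 scale. With the mouse as a block in limma, where the difference rests on these 4 mice, it was -1.88 (SE 0.39, adjusted p = 0.0218).

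Vsig4 is a complement receptor of Kupffer cells that takes up opsonized particles, with its probe at chrX:93442598-93442657. Its levels were 2.33, 4.07, 1.84, 3.74 and 3.67 in p53f/f HCC, 3.17, 3.92, 1.54, 1.94 and 1.19 in the p53LKO HCC and -0.08, -0.24, 2.21, 3.82 and 2.05 in ICC, in the same order of mice. The ICC of mice 3731 and 3733 were below every HCC, whereas that of mouse 3977 was near the top. The log2 fold change was -0.80 (SE 0.80, adjusted p = 0.435) without the block and -1.66 (SE 0.26, adjusted p = 0.0126 with limma) with it, and the ICC was lower in 4 of 4 mice. Cd5l encodes AIM, a secreted protein of tissue macrophages that keeps them alive and binds lipids (chr3:87174823-87174882). Its levels were 4.35, 5.53, 2.92, 6.19 and 6.10 in p53f/f HCC, 4.76, 6.19, 3.25, 4.36 and 2.89 in the p53LKO HCC and 1.38, 1.14, 3.56, 5.49 and 3.77 in ICC. Again 2 ICC lay below all HCC and the ICC of mouse 3977 lay among the highest values. The log2 fold change was -1.22 (SE 0.86, adjusted p = 0.271) without the block and -2.18 (SE 0.36, adjusted p = 0.0134 with limma) with it, and the ICC was lower in 4 of 4 mice.

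The block thus raised the count of genes called lower in ICC from 1 to 4, the added ones being Clec4f, Vsig4 and Cd5l, beside 12.1% of all probes called lower with the block. The same 11 genes were higher with the block as without it, beside 10.1% of all probes. Of the 22711 gene names tested, 31.4% were lower in the ICC of all 4 mice and 19.8% higher. Clec4f, Vsig4 and Cd5l stayed below 0 in each further setting with the block, between -2.50 and -1.31 on the log2 scale, and all 3 were called under normexp background correction and each of 3 other scalings. Without mouse 5283, Clec4f was not called (-1.89, adjusted p = 0.0545 with limma). With the row of the slide as a further block none of the 3 was called (Clec4f -1.40, Vsig4 -1.42 and Cd5l -1.81, adjusted p = 0.172, 0.108 and 0.117). In mice 3976 and 5283, both tumors lay in the lower row, and the ICC was lower there by 0.94 and 1.87 for Clec4f, by 0.96 and 1.87 for Vsig4 and by 1.19 and 2.42 for Cd5l. Both tumors of mouse 3733 were on 1 slide, in different rows, and differed by -3.24, -2.18 and -3.23 for these genes. No mouse had both tumors in the same row of the same slide.

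Siglec1, a sialic acid receptor of tissue macrophages (chr2:130895093-130895152), had levels of -3.28, -2.02, -2.36, -1.22 and -1.30 in p53f/f HCC, -1.44, -0.92, -1.10, -1.28 and -1.47 in the p53LKO HCC and -2.81, -1.40, -1.54, -1.33 and -1.48 in ICC. The ICC of mouse 3731 stood below the others and was not well above background. Siglec1 was also lower in the ICC of 4 of 4 mice, by 0.10 to 1.71, and was not called with the block (-0.62, SE 0.33, adjusted p = 0.194 with limma). The other 3 resident genes did not move one way. Marco, a scavenger receptor for bacteria, had levels of -1.19 to 1.21 in p53f/f HCC, -0.38 to 1.06 in p53LKO HCC and -1.17 to 2.69 in ICC, the highest being the ICC of mouse 3977. Folr2, a folate receptor of resident macrophages, ranged from -0.97 to 1.45, from -2.02 to 1.93 and from -0.88 to 1.87 in the same groups. With the block, Marco differed by -0.56 (adjusted p = 0.171) and Folr2 by -0.68 (adjusted p = 0.172 with limma), and over all 10 tumors without it by 0.17 and 0.24, so their direction turned with the tumors of mice 3975 and 3977, which the block leaves out of the difference. Spic, the transcription factor of iron-recycling macrophages, ranged from 0.15 to 1.11, from -0.03 to 1.26 and from -0.46 to 1.07, and the ICC was higher in 2 mice and lower in 2.

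**Figure D2:**
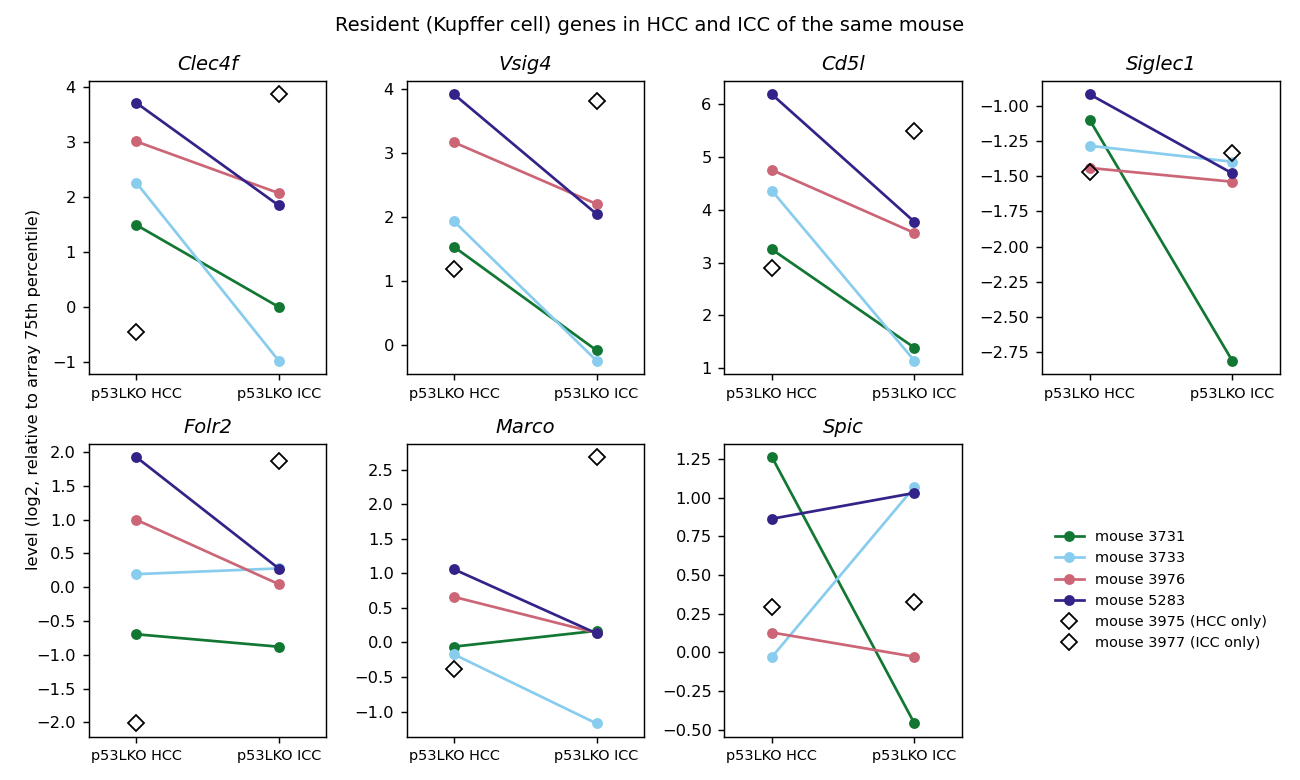
Levels (log2, relative to the 75th percentile of the array) of 7 resident genes in p53LKO HCC and p53LKO ICC, 1 panel per gene with its own axis. Lines join the tumors of 1 mouse (mice 3731, 3733, 3976 and 5283), and open diamonds are mouse 3975 (HCC only) and mouse 3977 (ICC only). All 4 lines fall for Clec4f, Vsig4, Cd5l and Siglec1, and the diamonds run against them for these 4 genes.

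By the median SD, the resident genes varied more from tumor to tumor than the other groups of genes. This SD among the 5 ICC was 1.40 on the log2 scale, against 0.41 for the recruited, 0.33 for the Fc receptor and lysosome, 0.29 for the dendritic and 0.43 for the shared receptor genes. The same order of resident over recruited genes held in p53LKO HCC (1.15 and 0.73) and p53f/f HCC (1.03 and 0.77). In the p53LKO groups the tumors at the ends were mostly the same across the resident genes. The HCC of mouse 5283 was the highest p53LKO HCC in 6 of the 7 genes and that of mouse 3975 the lowest in 6, and the ICC of mouse 3977 was the highest ICC in 6 of the 7. Over all 38 genes these tumors were at the same end in 17, 17 and 10. Among the p53f/f HCC, that of mouse 3716 was the lowest in 4 of the 7, and that of mouse 3715 and tumor 1 of mouse 3717 were each the highest in 3. No test was made of these ranks, which share their arrays.

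Between the HCC of the 2 genotypes, 0 of the 7 resident genes was called. With the row of the slide as a block, Vsig4 was called lower in p53LKO HCC (-1.57, SE 0.51, adjusted p = 0.0437 with limma), but in the upper row alone it was not called, and within slides it differed by 0.55 (slide 1) and -2.11 (slide 2). In the upper row, which holds all 5 p53f/f and 3 p53LKO tumors, the differences were -1.57 for Vsig4, -1.52 for Cd5l, -1.19 for both Clec4f and Folr2, -0.35 for Marco, -0.13 for Spic and 0.75 for Siglec1. Without the block Cd5l (-0.73, 95% interval -2.43 to 0.97), Vsig4 (-0.78, -2.14 to 0.59) and Siglec1 (0.79, -0.03 to 1.62) had the largest log2 differences, and the direction of Cd5l turned under spike-in scaling (0.01), while that of Siglec1 and Vsig4 did not turn. The intervals are wide enough to hold more than a doubling in one direction for each of these genes. Within slides the differences of Clec4f had opposite signs, 1.24 (slide 1, 4 p53f/f against 2 p53LKO tumors) and -1.88 (slide 2, 1 against 3). Its pooled value of -0.29 (adjusted p = 0.816 with limma) was fitted without the slide, so it also holds the difference between slides.

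Of the 10 recruited genes tested, 6 were higher and 1 was lower in ICC, beside 13.1% and 14.2% of gene names. Lyz2, lysozyme of monocytes, macrophages and neutrophils and the gene used to mark them (chr10:116719175-116719234), had levels of 0.30, 1.15, 0.92, 0.86 and 1.13 in p53f/f HCC, 0.61, 1.52, 2.31, 0.85 and 0.41 in the p53LKO HCC and 3.92, 4.45, 3.89, 4.0 and 4.37 in ICC. The ICC were tightly grouped and every one lay above every HCC. The level in ICC was 7.93-fold that in p53LKO HCC (log2 2.99, SE 0.34, adjusted p = 0.000128 with limma). Ncf4 encodes p40phox, a cytosolic subunit of the phagocyte NADPH oxidase (chr15:78092903-78092962). Its levels were 0.18, 2.18, 2.74, 2.09 and 2.60 in p53f/f HCC, 1.24, 2.86, 2.79, 1.59 and 1.56 in the p53LKO HCC and 4.57, 5.33, 5.17, 4.71 and 5.67 in ICC. The lowest ICC stood above the highest HCC, and the fold was 8.46 (log2 3.08, SE 0.36, adjusted p = 0.000149 with limma).

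Trem2 is the lipid-sensing receptor of scar-associated and lipid-associated macrophages (chr17:48491537-48491596). Its levels were -0.97, 1.32, 0.51, 1.73 and 2.07 in p53f/f HCC, 1.52, 2.69, 2.07, 1.35 and 0.89 in the p53LKO HCC and 3.64, 4.08, 4.25, 3.51 and 4.28 in ICC. No ICC reached down to an HCC, and the fold was 4.75 (log2 2.25, SE 0.32, adjusted p = 0.000445 with limma). Gpnmb, a lysosomal glycoprotein of the same macrophages that is also found in other cells (chr6:49006386-49006445), had levels of -2.15, -1.93, -4.48, 0.78 and 0.80 in p53f/f HCC, -1.99, -0.29, -1.17, -1.39 and -4.09 in the p53LKO HCC and 0.40, -0.01, 0.11, -0.03 and 1.80 in ICC. Its ICC stood above the p53LKO HCC and overlapped the p53f/f HCC, of which the tumor at -4.48 was not well above background. The fold was 4.73 (log2 2.24, SE 0.63, adjusted p = 0.0149 with limma). This call was lost with the lower row alone (log2 1.59, adjusted p = 0.0869) and the row as a block (log2 1.59, adjusted p = 0.167 with limma). It was also lost, at an unchanged log2 2.24, with all 15 arrays in 1 model (adjusted p = 0.0536) or the methods' t-test (0.0535).

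Lyz1, the lysozyme gene next to Lyz2 (chr10:116724862-116724921), had levels of 3.55 to 4.73 in p53f/f HCC, 4.38 to 5.74 in p53LKO HCC and 6.54, 6.82, 6.64, 6.60 and 6.63 in ICC. Ncf1, p47phox of the same oxidase (chr5:134696380-134696439), had levels of -2.24 to -1.38, -1.5 to -0.58 and 0.03, 0.39, 0.84, 0.26 and 0.86. Neither gene overlapped between ICC and HCC, and they rose by 1.67 (SE 0.26, adjusted p = 0.000715) and 1.63 (SE 0.25, adjusted p = 0.000613 with limma) on the log2 scale. Cybb, the membrane subunit gp91phox of the oxidase, did not follow its partners: its level was 0.27 to 2.38 in p53LKO HCC and 0.62 to 1.93 in ICC, with a log2 difference of -0.18 (95% interval -1.13 to 0.76, adjusted p = 0.739 with limma). That the oxidase subunits differed from one another was not tested.

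Elane, elastase of neutrophil granules (chr10:79350902-79350961), had levels of 2.24, 1.93, 2.42, 2.06 and 1.83 in p53f/f HCC, 3.29, 2.56, 2.80, 2.74 and 2.97 in the p53LKO HCC and 1.23, 0.93, 1.5, 1.27 and 2.13 in ICC. The p53LKO HCC were above all other tumors. Elane fell by 1.46 in ICC (SE 0.24, adjusted p = 0.000855) and was 0.77 higher in p53LKO than in p53f/f HCC (SE 0.19, adjusted p = 0.00935 with limma), which is 1.71-fold and so below the fold limit. Mpo, myeloperoxidase of the same granules, was well above background on 11 of 15 arrays and was not called (0.90, SE 1.09, adjusted p = 0.522 with limma). Ly6c1, a Ly6 surface protein carried by endothelial cells as well as monocytes, was 3.43 to 4.87 in p53LKO HCC and 3.27 to 4.21 in ICC, a difference of -0.27 (adjusted p = 0.514 with limma). Its second probe differed by 0.03, and a close paralog can share its signal.

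**Figure D3:**
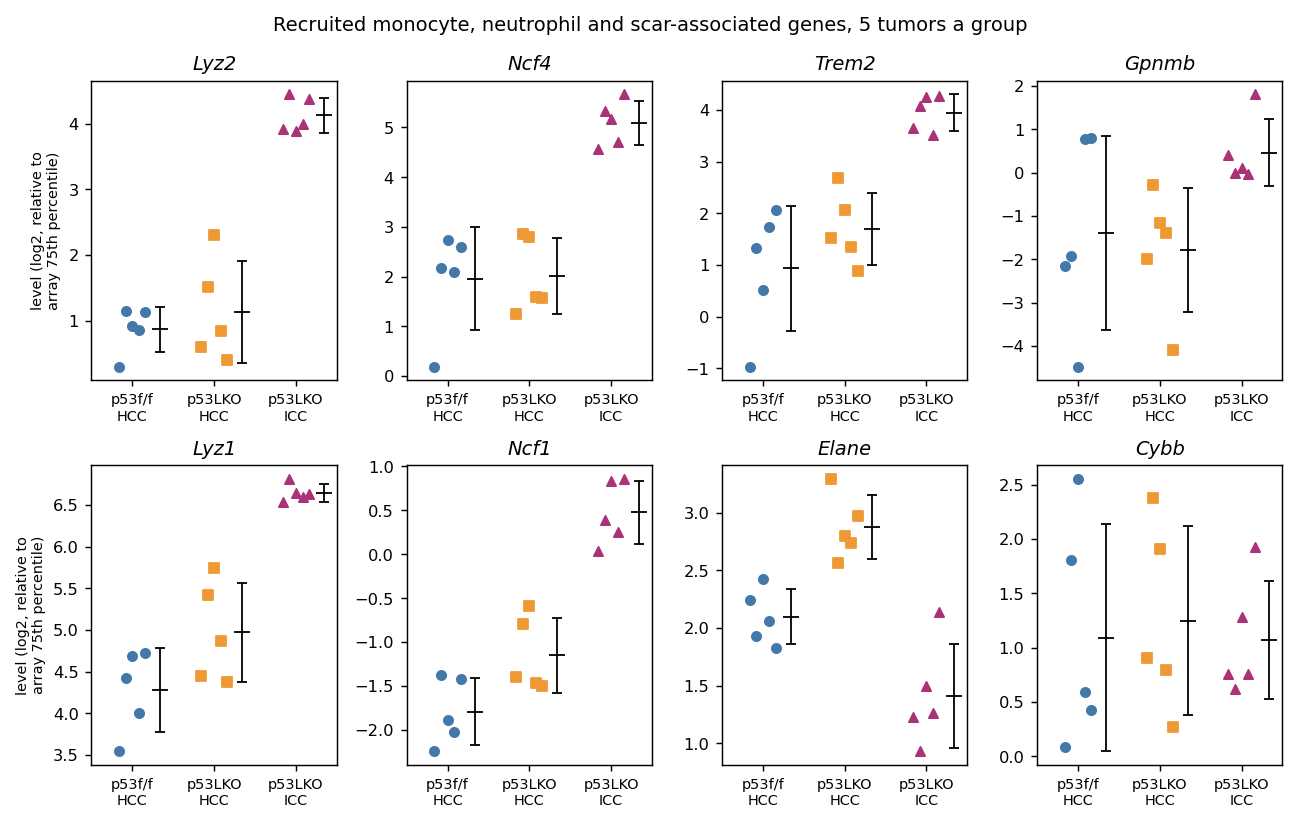
Levels (log2, relative to the 75th percentile of the array) of 8 recruited genes in the 3 groups, 1 point per tumor, with the mean and SD of the 5 tumors of each group. For Lyz2, Lyz1, Ncf1, Ncf4 and Trem2 all ICC lie above all HCC, and for Elane the p53LKO HCC lie highest.

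Between the HCC of the 2 genotypes, 0 of the 10 recruited genes was called, with log2 differences from -0.39 to 0.77. Trem2 had 0.77 (SE 0.55, adjusted p = 0.301 with limma), the p53f/f tumor of mouse 3681 being the lowest at -0.97. That tumor was the lowest p53f/f HCC in 24 of the 38 genes.

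Of the 9 shared macrophage receptors, 1 rose in p53LKO HCC and 1 in ICC, beside 4.15% and 13.1% of gene names. Cd14, the co-receptor for lipopolysaccharide, had levels of 2.52, 2.19, 2.26, 3.88 and 2.92 in p53f/f HCC, 4.02, 5.23, 3.79, 4.04 and 4.33 in the p53LKO HCC and 3.87, 3.98, 3.77, 3.77 and 3.93 in ICC. Only 1 p53f/f HCC, of mouse 3717, reached into the range of the p53LKO tumors, and the 5 ICC lay between 3.77 and 3.98. Cd14 was 2.89-fold higher in p53LKO than in p53f/f HCC (log2 1.53, SE 0.36, adjusted p = 0.00866 with limma) and this call held in all 26 alternatives run. It differed by -0.42 between ICC and p53LKO HCC (adjusted p = 0.191 with limma). Injured hepatocytes can also express Cd14.

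Aif1, the actin-binding protein Iba1 of macrophages and microglia (chr17:35307959-35308018), had levels of 1.76, 3.02, 2.85, 2.77 and 3.48 in p53f/f HCC, 3.18, 4.0, 4.0, 3.48 and 3.66 in the p53LKO HCC and 4.61, 5.43, 4.91, 4.75 and 5.58 in ICC. Its ICC lay above all HCC. It rose 2.62-fold in ICC (log2 1.39, SE 0.24, adjusted p = 0.00131) and was 0.89 higher in p53LKO than in p53f/f HCC (SE 0.30, adjusted p = 0.0431 with limma), under 2-fold. The mannose receptor Mrc1 was 1.01 to 2.11 in p53LKO HCC and 1.59 to 2.93 in ICC (0.90, SE 0.28, adjusted p = 0.0251 with limma), also under 2-fold. The scavenger receptor Msr1 was -2.66 to 0.12 and -0.99 to 0.08 (0.86, SE 0.44, adjusted p = 0.13 with limma).

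The remaining shared receptors were not called in either comparison. Csf1r, the receptor for the growth factor that keeps macrophages alive, had levels of 5.22 to 6.26 in p53LKO HCC and 5.13 to 5.93 in ICC, a log2 difference of -0.02 (95% interval -0.57 to 0.53, adjusted p = 0.964 with limma). Its 3 probes disagreed between the genotypes, with 0.48 (adjusted p = 0.13), 0.54 (adjusted p = 0.223) and -0.67 (adjusted p = 0.00524 with limma). Emr1 (F4/80, the pan-macrophage marker) differed by 0.64 between ICC and p53LKO HCC (SE 0.26, adjusted p = 0.062), the lysosomal marker Cd68 by 0.16 (adjusted p = 0.726), and the apoptotic cell receptors Mertk and Axl by 0.02 (adjusted p = 0.959) and 0.61 (adjusted p = 0.0597 with limma). Among the shared receptors Aif1 was thus the one gene called in ICC, while Emr1 missed the threshold and Csf1r and Cd68 were not called.

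Of the 7 Fc receptor, adaptor and lysosome genes, 2 rose in ICC (beside 13.1% of gene names) and 0 changed between the HCC groups. Fcgr3, the low-affinity receptor for immunoglobulin G (chr1:172984129-172984188), had levels of -0.34, -0.20, -0.29, 0.41 and 0.34 in p53f/f HCC, -0.72, -0.24, 0.81, -0.48 and -0.60 in the p53LKO HCC and 1.46, 1.63, 1.01, 1.62 and 1.43 in ICC. The ICC lay above all HCC, the nearest being the HCC of mouse 3731. The fold was 3.20 (log2 1.68, SE 0.28, adjusted p = 0.00103 with limma). Ctss, cathepsin S, a lysosomal protease that prepares antigen (chr3:95360245-95360304), had levels of 3.70, 4.94, 4.68, 5.30 and 5.82 in p53f/f HCC, 5.15, 6.08, 6.27, 5.42 and 5.30 in the p53LKO HCC and 6.67, 7.01, 7.22, 6.77 and 6.97 in ICC. It too did not overlap, and rose 2.44-fold (log2 1.29, SE 0.24, adjusted p = 0.00184 with limma).

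Tyrobp (DAP12), the signalling adaptor of Trem2 and related receptors, was 2.95 to 4.18 in p53LKO HCC and 4.20 to 4.72 in ICC. All ICC were above all HCC, but the difference of 0.94 (SE 0.25, adjusted p = 0.0118 with limma) is 1.91-fold and below the fold limit. Fcgr1, the high-affinity receptor for immunoglobulin G, was -2.56 to -0.12 in p53f/f HCC, -1.05 to 0.56 in p53LKO HCC and -0.27 to 0.50 in ICC, with log2 differences of 0.87 (adjusted p = 0.145) and 0.25 (adjusted p = 0.492 with limma). Fcer1g, the signalling chain of the Fc receptors, Fcgr4, a further receptor for immunoglobulin G, and Laptm5, a lysosomal membrane protein of blood cells, differed by -0.15 to 0.61 in ICC and by 0.39 to 0.77 between genotypes, none called.

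Of the 5 dendritic cell genes, 2 rose in ICC against p53LKO HCC, beside 13.1% of gene names. Clec9a, the receptor for dead cell remnants on cross-presenting (type 1) dendritic cells (chr6:129372492-129372551), had levels of -2.28, -1.15, -2.17, -1.73 and -1.57 in p53f/f HCC, -2.23, -2.17, -1.96, -2.62 and -2.74 in the p53LKO HCC and 0.26, -0.50, -0.65, -0.19 and -1.11 in ICC. The ICC lay above all HCC, by a narrow margin for the ICC of mouse 5283, and 1 p53LKO HCC was not well above background. The fold was 3.75 (log2 1.91, SE 0.26, adjusted p = 0.000355 with limma). Cd83, a surface protein of mature dendritic cells and activated lymphocytes (chr13:43898276-43898335), had levels of -0.62, 0.70, 0.75, 0.42 and 0.63, then 0.59, 1.38, 2.04, 0.44 and 0.22, and in ICC 2.44, 2.70, 2.91, 2.28 and 2.86. It did not overlap, and rose 3.26-fold (log2 1.70, SE 0.33, adjusted p = 0.00227 with limma). Cd86, a co-stimulatory ligand for T cells, was -0.57 to 0.88 in p53LKO HCC and 0.34 to 0.93 in ICC, a difference of 0.75 (SE 0.27, adjusted p = 0.0419 with limma) below the fold limit.

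Flt3, the receptor for the growth factor of dendritic cells and their precursors, was measured by 3 probes that disagreed. The brightest (chr5:148174133-148174192) gave 0.08, -0.81, -0.33, -0.53 and -0.86 in p53f/f HCC, -2.46, -2.95, -2.46, -1.63 and -1.93 in the p53LKO HCC and -0.66, -0.66, -1.81, -0.66 and -2.67 in ICC. No p53LKO HCC reached up to the p53f/f HCC, and the log2 difference was -1.79 (SE 0.27, adjusted p = 0.000758 with limma). The 2 other probes, at chr5:148178496-148178555 and chr5:148142576-148142635, gave 0.15 and -0.22 (adjusted p = 0.687 and 0.598 with limma), and the call was lost with the mean of the probes (-0.62). In ICC the brightest probe gave 0.99 (adjusted p = 0.0748) and that at chr5:148142576-148142635 gave 1.46 (adjusted p = 0.00039 with limma). The probe at chr5:148178496-148178555 was not well above background on any ICC array, so no difference is given for it there. The fall of Flt3 in p53LKO HCC thus rests on 1 probe.

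Siglech, a receptor of plasmacytoid dendritic cells, was read by 2 probes, shown here because the brighter one is not particular to this gene. Each line holds bases 1 to 30 of the 60-base probe, 5′ to 3′, from the array's probe at chr7:63034088-63034147 for the brighter probe and chr7:63033826-63033885 for the dimmer one (mm9). Capitals mark bases inside a 15-base word that also occurs in the probes of other gene names.
Siglech, brighter probe: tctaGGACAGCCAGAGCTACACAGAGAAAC
Siglech, dimmer probe: acaacagttaaattcccttgcagagacatc
The brighter probe shared such words with probes of 15 other gene names and the dimmer one with none. The other members' probes shared them with at most 1, and 1.10% of 53219 probes on the array with more than 10. The brighter probe gave 8.14, 8.01, 8.17, 8.06 and 7.95 in p53f/f HCC, 7.0, 6.74, 6.85, 7.41 and 7.22 in the p53LKO HCC and 7.0 to 7.72 in ICC. The HCC of the 2 genotypes did not overlap (log2 -1.02, SE 0.16, adjusted p = 0.00104 with limma). The dimmer probe was well above background on 5 p53f/f and only 2 p53LKO HCC arrays, so no difference is given for it. The call of the brighter probe was lost in 7 of 26 alternatives, in 6 of them because its log2 difference (-0.99 to -0.91) slipped under the fold limit. These were quantile normalization, the row as a block, the upper row alone, and leaving out the p53LKO HCC of mouse 5283 or 3731 or the p53f/f HCC of mouse 3716. Under spike-in scaling the difference was -0.28 (adjusted p = 0.197 with limma).

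Resident and recruited genes were set against each other within each tumor, as the mean level of the 7 resident genes minus that of the 10 recruited ones, relative to the p53f/f HCC mean. A constant added to all levels of an array does not change this difference. It was -0.02, 0.40, -0.92, 0.36 and 0.18 in p53f/f HCC, -0.03, -0.01, -1.23, -0.32 and -0.95 in the p53LKO HCC and -2.90, -2.99, -2.29, -0.45 and -2.36 in ICC. The mean was -0.51 ± 0.55 (SD, n = 5) in p53LKO HCC and -2.20 ± 1.02 in ICC, with an SD of 0.54 in p53f/f HCC. The ICC of mouse 3977 was the one ICC within the range of the HCC, and the other 4 were below every HCC. No p is given, since the genes were chosen with results known.

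Over all tumors, the recruited genes differed more between ICC and p53LKO HCC than the resident genes. The recruited mean was 1.60 in ICC (1.15 to 2.08) and 0.32 in p53LKO HCC (-0.40 to 1.04), without overlap. The resident mean was -0.60 in ICC (-1.75 to 1.03) and -0.19 in p53LKO HCC (-1.35 to 1.03). The ICC of mouse 3977 had recruited genes at 1.48, inside the ICC range, and resident genes at 1.03, the highest of the ICC. Within mice, the resident mean was lower in the ICC by 1.19, 1.22, 0.69 and 1.30 (mice 3731, 3733, 3976 and 5283), and the recruited mean was higher by 0.48, 1.45, 1.57 and 1.04. The resident change was the larger one in mice 3731 and 5283 and the recruited change in the other 2.

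**Figure D4:**
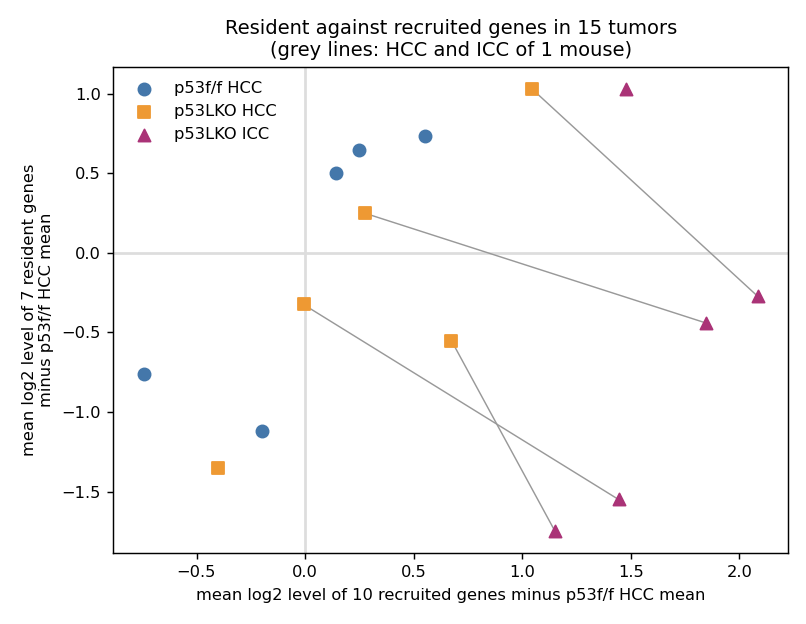
Mean level of the 7 resident genes and of the 10 recruited genes, 1 group of genes per axis. Both are log2 and relative to the p53f/f HCC mean, 1 point per tumor, with grey lines joining the HCC and ICC of a mouse. The 5 ICC lie at 1.15 to 2.08 for the recruited genes, above all HCC, and spread from -1.75 to 1.03 for the resident genes.

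Markers of other cell types were read in the same tumors, beside 13.1% of gene names called higher and 14.2% lower in ICC. In ICC against p53LKO HCC, the mean level of 5 general leukocyte genes relative to the p53f/f mean was 1.03 to 1.55 against -0.17 to 0.87, and 2 of the 5 rose. T, B and NK cell genes ranged from -0.74 to 0.16 in ICC and from -0.64 to 0.06 in p53LKO HCC (3 of 8 higher, 1 lower). Stellate cell and fibroblast genes were at 1.77 to 2.61 against -0.09 to 1.81 (4 of 6 higher). Hepatocyte genes were at -3.77 to -1.19 against -0.86 to -0.34, and endothelial genes at -2.39 to -0.24 against -1.44 to 0.22 (0 of 6 called). Within the 4 mice, the ICC was lower than the HCC in endothelial genes by 1.58, 1.65, 0.83 and 0.42 and in hepatocyte genes by 0.37, 3.43, 1.84 and 1.73, in the order of mice given above. The part of these cell types in the lower resident genes was not tested.

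Further myeloid genes, from lists of known genes other than the members, were read the same way, counting genes well above background on 3 or more arrays of both groups. Of all gene names tested in ICC against p53LKO HCC, 13.1% were called higher and 14.2% lower. Of 10 other Kupffer cell genes, 4 fell and 0 rose in ICC, among them the iron exporter Slc40a1 (-2.26), the nuclear receptor Nr1h3 (-1.65) and the prostaglandin dehydrogenase Hpgd (-1.53). Hpgd was not called with the row as a block (-1.23, adjusted p = 0.0866 with limma). Slc40a1 and Nr1h3 are also expressed by hepatocytes. The mean over 12 genes of this list was lower in the ICC of each of the 4 mice, by 1.11, 1.77, 1.04 and 1.45. It includes Emr4, well above background on 1 ICC array, and a further dim gene. The mean is thus set in part by signal near background and adds nothing to these counts. Of 14 other genes of recruited monocytes and macrophages, 8 rose and 0 fell, among them osteopontin (Spp1, 4.73), the chitinase-like protein Chi3l3 (2.50) and the integrin Itgax (2.11). Spp1 is also made by biliary and tumor cells. Chi3l3 was not called with the mouse as a block (2.48, adjusted p = 0.0757) or the row as a block (2.14, adjusted p = 0.0665 with limma), though its difference was nearly as large.

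Of 7 other dendritic cell genes, 4 rose in ICC and 1 fell, beside 13.1% and 14.2% of gene names. The chemokine Ccl17 rose by 4.28, the migration receptor Ccr7 by 1.81 and the actin-bundling protein Fscn1 by 1.63, and Bst2, an antiviral protein that plasmacytoid cells carry, fell by 1.54. Fscn1 was not called with the mouse as a block (1.71, adjusted p = 0.0997 with limma) or in the methods' t-test, with no smaller a difference. Of 8 other neutrophil genes, 0 were called in either direction. Emr4, Mmp12 and Cxcr2 (ICC against p53LKO HCC) and Ccl17 (between the genotypes) reached that number of arrays only in the group where they were higher, and their calls are left out of these counts.

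Between the genotypes, 4 of 9 other neutrophil genes were higher in p53LKO HCC and 1 was lower, beside 4.15% and 13.9% of gene names. Retnlg (2.22, SE 0.68, adjusted p = 0.0286, well above background in 3 of the 5 p53f/f HCC), S100a9 (2.10, SE 0.49, adjusted p = 0.00794) and S100a8 (1.84, SE 0.54, adjusted p = 0.0233), neutrophil cytosol and granule proteins, and Ltf, lactoferrin, rose, and Csf3r, the receptor for the neutrophil growth factor, fell (-1.55, SE 0.19, adjusted p = 0.000196 with limma). S100a9 was called in all 26 alternatives, S100a8 in 21 of 26 and Retnlg in 16 of 25. The calls of S100a8 and Retnlg were lost with the row as a block (1.71 and 2.09, adjusted p = 0.0763 and 0.0861) and with the slide as a block (1.75 and 2.10, adjusted p = 0.0581 and 0.0685 with limma), at differences nearly as large. The brightest probe of Csf3r also shares 15-base words with probes of 10 other gene names. Of 11 other Kupffer cell genes 1 fell (C6, a complement component, -1.42), and of 8 other dendritic cell genes 1 fell (the chemokine receptor Ccr9, -1.23). Of 14 other recruited genes 3 rose (Chi3l3, Cx3cr1 and Capg) and Itgam fell, its probe sharing words with 48 other gene names. Cebpb, a transcription factor of granulocytes and of injured liver, rose by 1.02 and was called in 15 of 26 alternatives, its fold being under 2 in the others.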

How the data were processed

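Total RNA of 15 tumors was labelled with Cy3 and hybridised to Agilent SurePrint G3 mouse 8x60K arrays. The authors extracted the scans with Feature Extraction 10.7.3.1, and the deposited processed signal of each spot is an intensity on a linear scale with the background subtracted. The authors also deposited a table of log2 values. Compared with the scanner files it was found to be the log2 signal minus the 75th percentile, centred per probe on a median (r at least 0.99989), with HCC columns centred on the HCC arrays and ICC columns on the p53LKO arrays, so it was used as an alternative for the HCC comparison only. The methods name GeneSpring, and its normalization is not given in the sources used here.

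Replicate spots of a probe were averaged as log2 processed signals without outlier spots, and the 75th percentile over non-control probes of the array was subtracted. A probe was tested if 3 or more arrays of either group had it well above background. The test was made with limma 3.58.1 in R 4.3.3 (10 arrays per comparison, Benjamini-Hochberg adjustment over all probes tested). A gene was called at an adjusted p under 0.05 and over 2-fold. Figures were drawn with Python 3.11.15 and matplotlib 3.10.9. Groups and mice were taken from the sample labels, and probe positions (mm9) from the array files. An exact two-sided permutation test of 5 against 5 arrays cannot go below p = 0.00794. Nothing in the labels says that the 2 tumors of mouse 3717 are independent, so a fit with their mean was an alternative.

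The members, role groups and gene lists were chosen with earlier results of these data known. Values are given for every resident gene, for up to 4 genes with the largest change in each other role group, and for up to 4 called genes of each further list. Lyz1, Ncf1, Elane, Cybb, Csf1r and the other members given with values beyond this rule, and Ltf, Csf3r, Cx3cr1, Capg, Itgam, C6 and Ccr9 of the further lists, were named after their values were seen. The list of myeloid growth factors and transcription factors is not reported here in full. HCC and ICC were paired by mouse, since 4 mice gave both, and the fit with the mouse as a block was an alternative. The correlation of same-mouse deviations from the group means was -0.143 to 0.066 (4 pairs), and that of the 21 other pairs -0.263 to 0.284, so the pairing rests on the shared animal. Simulated arrays with known changes were used to test the fit. All pairs of arrays correlated at 0.899 to 0.981, and none was a duplicate.

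The alternatives were normexp background correction (offset 50), quantile normalization, the 75th percentile over probes well above background on all arrays, spike-in scaling, stricter and no filters on dim probes, the mean of the probes of a gene, no fold limit, slide, row or mouse as a block, 1 value for both tumors of mouse 3717, the methods' t-test, the authors' table, a single model of the 15 arrays and leaving out each tumor. Probes without widely shared words, the upper or lower row alone, the 8 paired tumors alone and the mouse block combined with another scaling, the row or 1 mouse less were added after seeing the data. Arrays have no read depth, and their number and the signal over background limit the precision.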

Additional observations from a re-analysis of the deposited data

Results flagged for a closer look

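Among 129 sets of 5 tumors (1 per named gene and group), the highest or lowest tumor stood apart from the other 4 in 7, by more than 0.71 of the range of its set, and chance gives about 1 in 20. In the ICC, Siglec1 was at -2.81 in mouse 3731, where it was not well above background, and at -1.54 in the next tumor. Mouse 5283 gave the other ICC values that stood apart, Gpnmb at 1.80 (next 0.40) and Chi3l3 at 1.43 (next 3.61). The p53f/f HCC of mouse 3681 was low in Cd83 at -0.62 (next 0.42) and in Ncf4 at 0.18 (next 2.09). The p53LKO HCC of mouse 3731 was high in the dendritic cell genes Ccl17 at -0.17 (next -2.48) and Ccr7 at 1.46 (next -0.71).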

How the results depend on the processing

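With the mouse as a replicate block, 11 members were higher in ICC than in p53LKO HCC, as without it, and 4 were lower in place of 1, in the fit of all 10 tumors and in that of the 8 tumors of the 4 mice. The count of 4 was also given by the mouse block with normexp correction, quantile normalization, spike-in scaling or the 75th percentile over well measured probes (well above background on all arrays). It was 0 with mouse and row as blocks together and 3 to 4 without 1 mouse (Elane was not called without mouse 3733 or 3976). Without the block, every alternative gave 1 lower member, Elane, while the higher members were 11 to 13 on leaving out 1 tumor and 10 to 16 under the other alternatives.

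Between the HCC groups, the 1 higher member (Cd14) became 3 without a fold limit (with Aif1 and Elane), 16 under spike-in scaling and 1 to 3 on leaving out a tumor. The 3, Cd14, Cd68 and Aif1, came without the p53LKO HCC of mouse 3976. The 2 lower members became 1 with quantile normalization, spike-in scaling or the upper row alone (Flt3), and with the mean of all probes or well above background on every array required (Siglech). Leaving out a tumor gave 1 to 2, the count being 1 without the p53LKO HCC of mouse 5283 or 3731 or the p53f/f HCC of mouse 3716. With the row as a block it stayed 2, as Flt3 and Vsig4. The resident minus recruited mean moved by less than 1 SD in every alternative.

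The sign also turned for genes that were not called. Between the HCC groups it did so under spike-in scaling for Cd5l (0.0096), Clec4f (0.45), Clec9a (0.17), Fcgr3 (0.50), Folr2 (0.46), Gpnmb (0.35), Mrc1 (0.28), Msr1 (0.016) and Spic (0.60), with the slide as a block for Clec4f (0.12), Folr2 (0.061) and Ncf4 (-0.059), with 1 value for mouse 3717 for Gpnmb (0.15), with the percentile over well measured probes for Marco (-0.17), Ncf4 (-0.20) and Tyrobp (-0.056), with normexp for Marco (-0.017), with the row as a block or the upper row alone for Marco (-0.35 each) and with quantile normalization for Ncf4 (-0.14) and Tyrobp (-0.059). In ICC it turned with quantile normalization for Cd14 (0.012), with the lower row alone or the row as a block for Folr2 (-1.15) and Marco (-0.47), with the mouse as a block for Folr2 (-0.68) and Marco (-0.56), and with the percentile over well measured probes for Spic (0.25). Leaving out a tumor gave, between the HCC groups, -0.71 to 0.33 for Clec4f, -0.73 to 0.25 for Folr2, -1.16 to 0.18 for Gpnmb, -0.026 to 0.45 for Lyz2, -0.26 to 0.34 for Marco, -0.39 to 0.25 for Ncf4 and -0.074 to 0.35 for Tyrobp, and in ICC -0.29 to 0.70 for Folr2, -0.41 to 0.56 for Marco and -0.29 to 0.10 for Spic. The cause of these changes was not tested. Row and group are partly confounded, the number of arrays limits the precision, and dim probes (Cd163, Mpo, Gpnmb, Flt3, Clec9a and Siglec1) are limited by their signal over background.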
